A study of Mus musculus with 12 samples.

Results

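The RNA levels of 9 protein kinases, 8 MAP kinase genes (Mapk3, Mapk4, Mapk6, Mapk8, Mapk9, Mapk10, Mapk11 and Mapk14) and the MAP kinase-like gene Nlk, were followed across the cortex and cerebellum of SCA1 KI and WT mice. The members were found by symbol in a table of 15759 gene entries, and all 9 were present and reached the minimum mean of 10 normalized counts that 15369 genes reached. The 9 genes were chosen by family and with the normalized counts and fold changes of these libraries already known, so their levels and log2 fold changes (LFCs) are given as a description with no test. A further 4 MAP kinases (Mapk7, Mapk12, Mapk13 and Mapk15) and 11 lists of pathway genes, none of which holds a member, are given with their tests. These lists too were chosen with earlier results of these data known, so nothing is read from the share of a list that was called. SCA1 KI mice, a knock-in model of spinocerebellar ataxia type 1, carry an Atxn1 allele of 154 glutamine codons beside an allele of 2 (Atxn1 154Q/2Q), on a C57BL/6J background. WT mice were littermates of the same strain. Both genotypes were 12 weeks old and received no treatment beyond standard housing and chow, and the labels list males whereas the methods describe both sexes combined. The 4 groups were cortex WT, cortex SCA1 KI, cerebellum WT and cerebellum SCA1 KI, with 3 libraries in each, each called a biological replicate by the submitters. Atxn1 is expressed from its own locus in many cell types and each region was macrodissected as tissue of many cell types, so fewer cells of a type and less RNA per cell cannot be told apart in any value below. Library depth, as reads counted on genes, lay between 29520855 and 51311309.

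Typical MAP kinases are the last of 3 kinases that act in series. In such a series a MAP kinase kinase kinase activates a MAP kinase kinase, which in turn phosphorylates the MAP kinase. The classical ERK kinases, of which Mapk3 encodes one (ERK1), carry signals from Ras and growth factor or glutamate receptors, and in neurons they are required for forms of synaptic plasticity and memory. JNK kinases (Mapk8, Mapk9 and Mapk10) and p38 kinases (Mapk14, Mapk11, Mapk12 and Mapk13) are best known for responses to stress and cytokines, and Mapk10 is the JNK gene whose expression is largely limited to nervous tissue. Mapk6 (ERK3) and Mapk4 (ERK4) are atypical members that lack the usual activation motif, and Nlk is a further relative that acts in Wnt and Notch signalling and is known to bind and phosphorylate ataxin-1, the product of Atxn1.

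In the cortex, 8 of the 9 genes had a negative LFC of SCA1 KI against WT, as 50.5% of all tested genes did, and 1, Mapk3, had a positive one. Mapk4, Nlk and Mapk6 differed most, with SCA1 KI levels 0.521, 0.554 and 0.647 times the WT level, and Mapk3 stood at 1.37 times the WT level. A gene was called when its limma adjusted p was under 0.05 and its absolute LFC over 0.25. These limits were met by 7 of the 9 in the cortex (6 lower, 1 higher), and 15.6% of all tested genes did so, 10.8% lower and 4.82% higher. Because the genes were chosen with this contrast in view, nothing is read from that count. The median LFC of the 9 was −0.37, beside −0.003 for all tested genes. In the cerebellum, where 5.36% of tested genes were called (0.917% higher, 4.44% lower), 0 of the 9 were called, with 0 also at an unadjusted p under 0.05 and 0 by edgeR and by DESeq2, and their LFCs ran from −0.15 to 0.05.

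**Figure D1:**
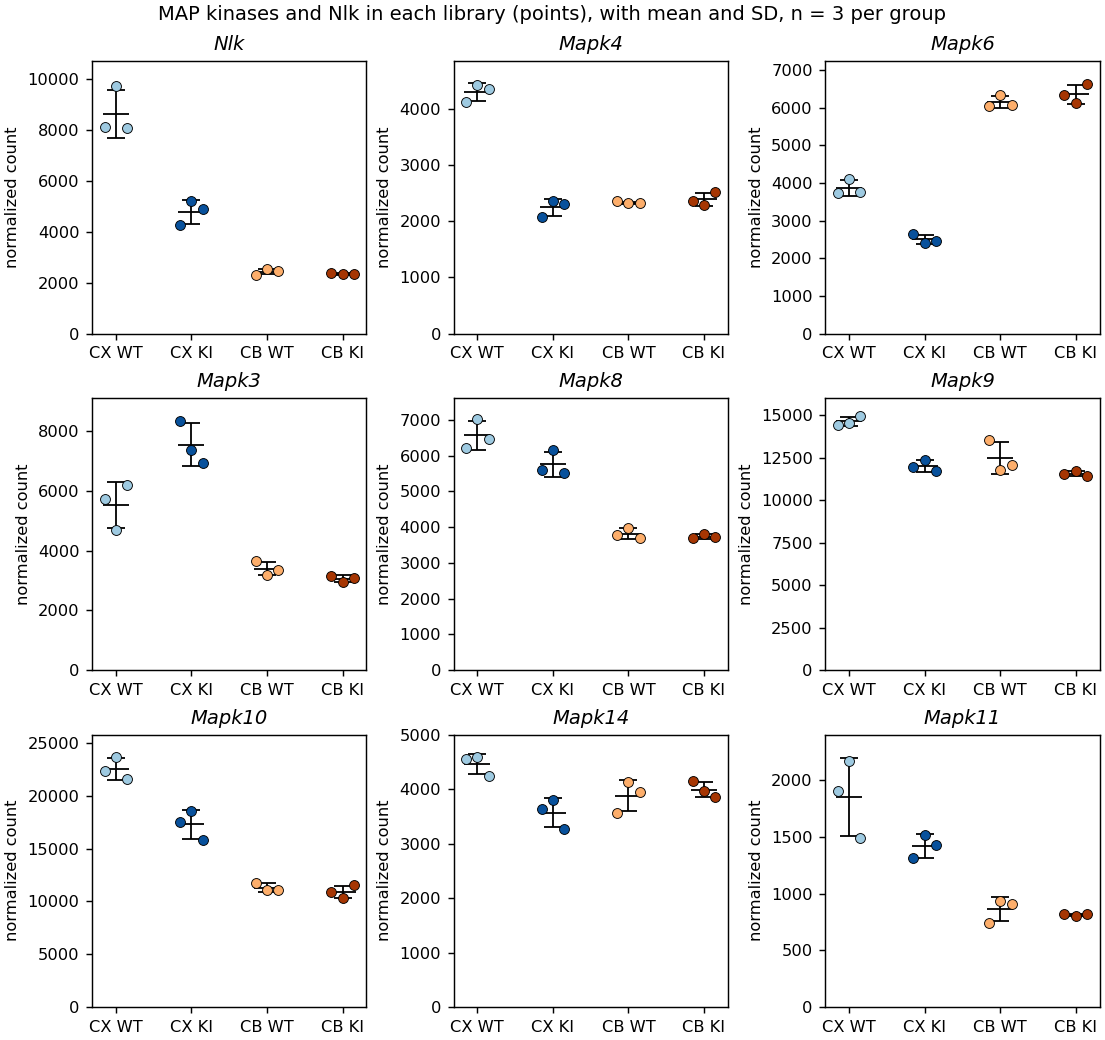
Normalized count (vertical axis, from 0) of each of the 9 genes in every library of WT and SCA1 KI cortex (CX WT, CX KI) and cerebellum (CB WT, CB KI), with points for libraries and bars for mean and SD (n = 3). In the cortex the Nlk, Mapk4 and Mapk6 points of the 2 genotypes lie apart with SCA1 KI lower, the Mapk3 points lie apart with SCA1 KI higher, and the Mapk11 points overlap.

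Nlk lies on chromosome 11 (GRCm38, chr11:78567168-78697373, minus strand). Its normalized counts in the cortex were 8132, 9739 and 8069 in the WT libraries and 4267, 5200 and 4896 in the SCA1 KI libraries. Every SCA1 KI value was below every WT value, and the gap between the groups was wider than the range within either group. The group means were 8646 ± 947 and 4788 ± 476 (SD, n = 3), an LFC of −0.85 (standard error 0.08). In the cerebellum the WT libraries held 2313, 2521 and 2472 and the SCA1 KI libraries 2391, 2331 and 2338 normalized counts, which overlapped (LFC −0.05, standard error 0.08, and 0.01 with the trend on exon length and GC content removed). Nlk had the greatest regional difference of the 9 genes in WT mice, with a WT cortex level 3.54 times that of the WT cerebellum, and a ratio of 2.03 in SCA1 KI mice.

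The 2 atypical ERK genes were both lower in the SCA1 KI cortex and differed in which region held more of them. Mapk4, on chromosome 18, had 4141, 4441 and 4358 normalized counts in WT and 2078, 2361 and 2308 in SCA1 KI cortex libraries. The WT libraries lay close together, far above the SCA1 KI libraries (LFC −0.94, standard error 0.06). The cerebellar values were 2358, 2326 and 2324 in WT and 2369, 2293 and 2522 in SCA1 KI mice (LFC 0.03, standard error 0.06), so the SCA1 KI cortex held about the level of the cerebellum: the LFC of cortex against cerebellum was 0.88 in WT and −0.09 in SCA1 KI mice. Mapk4 shares 258 exonic bases with Gm9925 on the other strand, and how strand was treated in counting is not given in the sources used here, so some of its reads may come from that gene. Mapk6, on chromosome 9 (chr9:75369062-75410005, minus strand), had 3737, 4117 and 3766 normalized counts in WT and 2636, 2413 and 2469 in SCA1 KI cortex libraries. Here too no library of one genotype reached the other (LFC −0.63, standard error 0.06). Of the 9 genes Mapk6 was the single one with a higher level in the WT cerebellum (6045, 6327 and 6060) than in the WT cortex, and the SCA1 KI cerebellum held 6326, 6110 and 6615 normalized counts (LFC 0.05, standard error 0.06). Its LFC of cortex against cerebellum was −0.67 in WT and −1.34 in SCA1 KI mice.

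Mapk3 was the member that went the other way. It lies on chromosome 7 (chr7:126759601-126765819, plus strand) and had 5730, 4681 and 6174 normalized counts in WT and 8319, 7347 and 6930 in SCA1 KI cortex libraries. All 3 SCA1 KI libraries lay above the WT libraries, but both groups were widely spread, with means of 5529 ± 767 and 7532 ± 713 (SD, n = 3). The LFC was 0.45 (standard error 0.10) and ran from 0.34 without WT library C to 0.54 without WT library D. The cerebellar values were 3646, 3184 and 3365 in WT and 3158, 2940 and 3079 in SCA1 KI mice, a small difference downward with no overlap (LFC −0.15, standard error 0.10, and −0.01 with the length and GC trend removed). Mapk3 has the shortest summed exon length of the 9 genes, 2257 bases, and the highest GC content, 57.6%, above 88.6% of tested genes.

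Among the JNK genes the LFC in the cortex was greatest for the neuronal gene Mapk10. Mapk10 (chr5:102907948-103211334, minus strand) had 22329, 23670 and 21590 normalized counts in WT and 17492, 18529 and 15854 in SCA1 KI cortex libraries, with no overlap (LFC −0.38, standard error 0.07). Its cerebellar values were 11753, 11062 and 11032 in WT and 10878, 10353 and 11508 in SCA1 KI mice, which overlapped (LFC −0.05, standard error 0.07). Mapk10 was thus near 2.00 times as high in the WT cortex as in the WT cerebellum, and 1.58 times in SCA1 KI mice. Mapk9 (chr11:49846751-49886421, plus strand), the JNK2 gene, had 14425, 14562 and 14956 normalized counts in WT and 11987, 12393 and 11707 in SCA1 KI cortex libraries (LFC −0.28, standard error 0.06). In the cerebellum it had 13551, 11812 and 12111 in WT and 11559, 11714 and 11447 in SCA1 KI mice, which also did not overlap, although WT library 4 lay close to the highest SCA1 KI value (LFC −0.11, standard error 0.06, and −0.05 without WT library 2). Mapk8 (chr14:33377898-33447158, minus strand), the JNK1 gene, showed the least difference of the 9 in the cortex, with 6216, 7016 and 6467 in WT against 5608, 6144 and 5500 in SCA1 KI mice. Its groups did not overlap, yet the closest libraries were little apart and the LFC of −0.19 (standard error 0.06) stayed within the limit of 0.25. The cerebellar values of Mapk8 were 3770, 3989 and 3703 in WT and 3683, 3804 and 3717 in SCA1 KI mice (LFC −0.03, standard error 0.06).

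Of the p38 genes, Mapk14 encodes p38 alpha, the widely expressed form, and Mapk11 encodes p38 beta. Mapk14 (chr17:28691329-28748406, plus strand) had 4550, 4597 and 4247 normalized counts in WT and 3632, 3810 and 3279 in SCA1 KI cortex libraries, with no overlap (LFC −0.32, standard error 0.07). Its cerebellar values, 3565, 4126 and 3950 in WT and 4146, 3974 and 3865 in SCA1 KI mice, overlapped (LFC 0.04, standard error 0.07). Mapk11 (chr15:89142486-89149628, minus strand) had the lowest normalized counts of the 9, with 1904, 2169 and 1490 normalized counts in WT and 1316, 1522 and 1428 in SCA1 KI cortex libraries. It was the single member whose cortical groups overlapped, since WT library D lay below SCA1 KI library E. Its LFC of −0.37 (standard error 0.12) had the widest error of the 9 and ran from −0.25 without WT library C to −0.52 without WT library D, and DESeq2 called it where limma and edgeR did not. In the cerebellum Mapk11 had 742, 938 and 912 in WT and 822, 805 and 819 in SCA1 KI mice (LFC −0.08, standard error 0.12, and 0.05 with the length and GC trend removed).

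**Figure D2:**
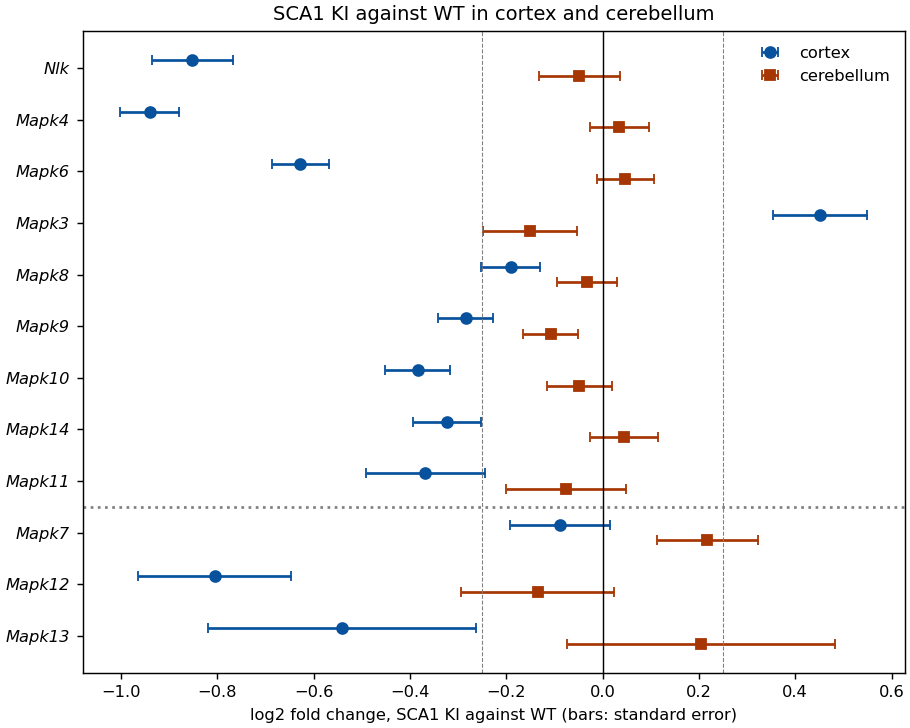
LFC of SCA1 KI against WT (horizontal axis, log2) in cortex (circles) and cerebellum (squares) for the 9 genes above the dotted line and 3 other MAP kinases below it, with bars for the standard error and dashed lines at an absolute LFC of 0.25; Mapk15, at few counts and a standard error of 0.57, is left out. The cortical points of Mapk4, Nlk and Mapk6 lie between −0.94 and −0.63 while their cerebellar points lie near 0.

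Placed side by side, the cortical libraries of the 2 genotypes did not overlap for 8 of the 9 genes, 7 lower and 1 higher in SCA1 KI mice, whereas 18.0% of all tested genes did not overlap in the lower direction and 13.0% in the higher. In the cerebellum 2 of the 9, Mapk3 and Mapk9, did not overlap and both were lower, beside 17.5% of tested genes lower and 14.3% higher. The difference of the LFCs between regions (cortex minus cerebellum) was −0.98 for Mapk4, −0.80 for Nlk, −0.67 for Mapk6, −0.37 for Mapk14, −0.33 for Mapk10, −0.29 for Mapk11, −0.18 for Mapk9, −0.16 for Mapk8 and 0.60 for Mapk3. Standard errors of these differences ran from 0.08 to 0.18. The differences of Mapk3, Mapk4, Mapk6, Mapk10, Mapk14 and Nlk had an adjusted p under 0.05, as those of 8.15% of tested genes did (3.26% higher, 4.89% lower), and edgeR gave this for 4 of the 6 (Mapk3, Mapk4, Mapk6 and Nlk). Nothing is read from these counts either. Between regions in WT mice, 8 of the 9 were higher in the cortex without overlap and 1, Mapk6, was lower, where 35.1% and 34.8% of tested genes were. By the limits for a call, 6 were higher and 1 lower in the WT cortex, beside 31.0% and 30.7% of tested genes (61.7% in all), with Mapk9 and Mapk14 inside the LFC limit.

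Levels of different genes were compared as normalized counts per kb of summed exon. In the WT cortex the order was Mapk3 (2449), Mapk9 (2159), Mapk10 (2024), Nlk (1587), Mapk14 (1020), Mapk4 (799), Mapk11 (642), Mapk6 (580) and Mapk8 (574). Neighbours in that order overlapped between libraries for Mapk3 and Mapk9, for Mapk9 and Mapk10, for Mapk11 and Mapk6, and for Mapk6 and Mapk8. In the SCA1 KI cortex Mapk3 stood at 3337 and Mapk9 at 1773 per kb, with no overlap between them. Nlk stood at 879 per kb there, and its libraries overlapped those of Mapk14 (817). Mapk4 (417) stood below Mapk8 (503) and Mapk11 (493) and overlapped with Mapk6 (375), the lowest in that group. In the WT cerebellum Mapk9 led with 1841 per kb, ahead of Mapk3 (1506) and Mapk10 (1014), and Mapk6 (920) and Mapk14 (887) overlapped. Nlk (447) and Mapk4 (433) overlapped in the WT cerebellum, above Mapk8 (334) and Mapk11 (299), which overlapped as well. In the SCA1 KI cerebellum the levels ran from 1706 per kb for Mapk9 to 282 for Mapk11.

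**Figure D3:**
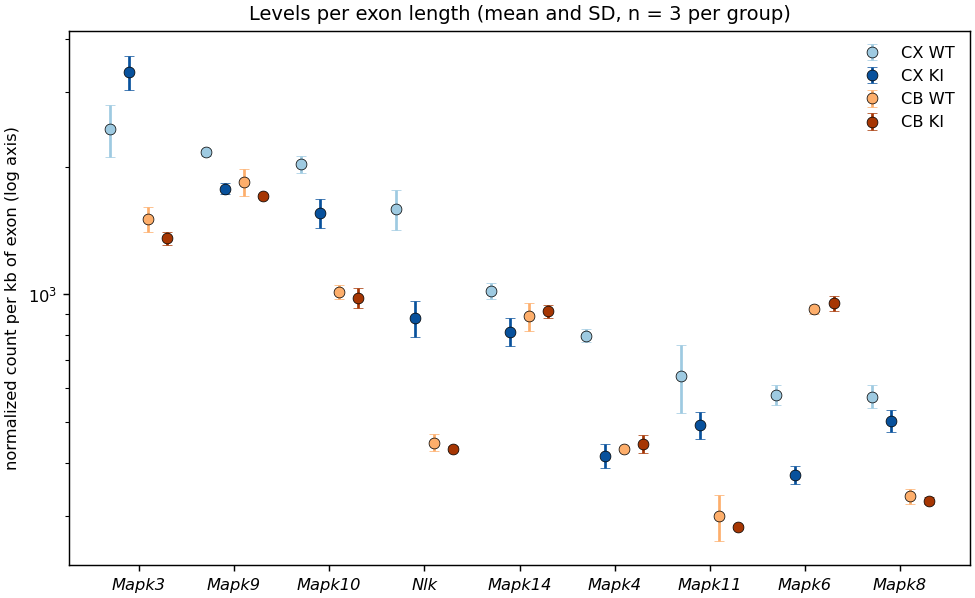
Normalized count per kb of exon (vertical log axis) of the 9 genes, ordered by their level in the WT cortex, as mean and SD (n = 3) in the 4 groups of region and genotype. In the SCA1 KI cortex Mapk3 stands at 3337 and Mapk9 at 1773, and Mapk6 is the one gene with higher points in the cerebellum than in the cortex in both genotypes.

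Shares within 3 groups of related genes are given as a description, from the same per-kb levels. Mapk4 made up 57.9% ± 0.86 (SD, n = 3) of the summed level of Mapk4 and Mapk6 in WT cortex, 52.6% ± 2.84 in SCA1 KI cortex, and 32.0% ± 0.66 in cerebellum of WT mice. Of the JNK genes Mapk9 had the highest mean share in all 4 groups. That rank depends on division by all annotated exons, 6784 bases for Mapk9 and 11130 for Mapk10, whichever transcripts were in use. In normalized counts not divided by length, Mapk10 stood above Mapk9 in WT and SCA1 KI cortex. Mapk10 held 42.5% ± 1.21 of the JNK sum in WT cortex, 40.5% ± 1.14 in SCA1 KI cortex, and 31.8% ± 0.53 in cerebellum of WT mice. Its cortical shares overlapped between genotypes. Mapk11 held 38.4% ± 3.50 of the sum of the p38 alpha and p38 beta genes in WT and 37.6% ± 2.16 in SCA1 KI cortex libraries, which overlapped.

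**Figure D4:**
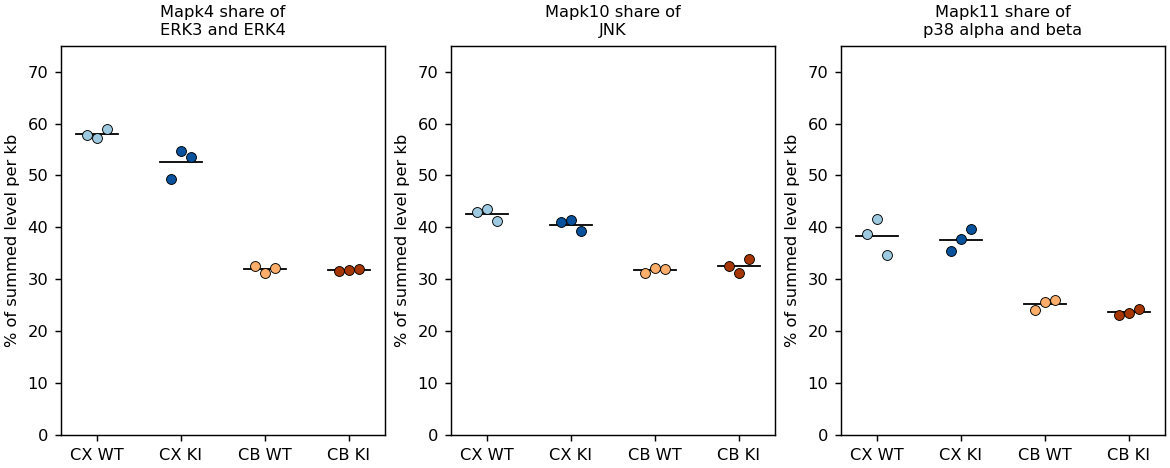
Share of a gene in its family's summed normalized count per kb of exon (vertical axis, percent) in each library, with lines at group means (n = 3), for Mapk4 among Mapk4 and Mapk6, Mapk10 among the 3 JNK genes and Mapk11 among Mapk11 and Mapk14. The Mapk4 share is 57.9% in WT and 52.6% in SCA1 KI cortex, while the cerebellar groups are at 32.0% and 31.8%.

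Of the MAP kinases outside the 9, Mapk12 (p38 gamma) fell in the SCA1 KI cortex. It had 153, 172 and 232 normalized counts in WT and 123, 90.1 and 102 in SCA1 KI libraries, without overlap (LFC −0.81, standard error 0.16, adjusted p = 0.00374 from limma). Its cerebellar LFC was −0.14 (standard error 0.16, adjusted p = 0.751), and Mapk12 was far higher in the WT cerebellum than in the WT cortex (1067 ± 150 against 186 ± 41.3, SD, n = 3). Mapk7 (ERK5) had LFCs of −0.09 (adjusted p = 0.613) in the cortex and 0.22 (adjusted p = 0.311) in the cerebellum. Mapk13 had LFCs of −0.54 (adjusted p = 0.212) in the cortex and 0.20 (adjusted p = 0.792) in the cerebellum, at means below 100 normalized counts in each group. Mapk15 had a cortical LFC of 1.38 with a standard error of 0.57 (adjusted p = 0.120), at means of 21.5 ± 23.7 in WT and 39.4 ± 4.83 in SCA1 KI mice, and passed without WT library B (LFC 2.23).

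The 7 members with a RefSeq promoter entry (GRCm38.p6) were searched in the 250 bases before the most upstream start for 6 short motifs on both strands. Mapk3 and Mapk4 had no entry. The 3 sequences below are shown because Nlk and Mapk6 were among the most reduced members in the cortex and Mapk10, the neuronal JNK gene, is the member whose window held a full cAMP response element. Capitals mark the GC box (GGGCGG, bound by Sp factors) and the half-site of the cAMP response element (TGACG, bound by CREB and ATF factors), each on either strand, and all 3 promoters are on the minus strand at chr11:78697426-78697675 for Nlk, chr9:75410017-75410266 for Mapk6 and chr5:103211335-103211584 for Mapk10.
Nlk: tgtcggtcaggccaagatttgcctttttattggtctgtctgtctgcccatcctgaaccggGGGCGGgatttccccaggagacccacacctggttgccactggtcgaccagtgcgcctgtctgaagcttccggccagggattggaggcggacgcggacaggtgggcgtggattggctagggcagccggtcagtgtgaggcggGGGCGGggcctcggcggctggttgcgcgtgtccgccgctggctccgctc
Mapk6: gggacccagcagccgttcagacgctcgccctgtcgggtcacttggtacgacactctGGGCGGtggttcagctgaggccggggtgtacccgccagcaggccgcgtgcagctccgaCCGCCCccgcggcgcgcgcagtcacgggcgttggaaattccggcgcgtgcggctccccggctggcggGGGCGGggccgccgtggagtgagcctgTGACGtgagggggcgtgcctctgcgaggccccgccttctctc
Mapk10: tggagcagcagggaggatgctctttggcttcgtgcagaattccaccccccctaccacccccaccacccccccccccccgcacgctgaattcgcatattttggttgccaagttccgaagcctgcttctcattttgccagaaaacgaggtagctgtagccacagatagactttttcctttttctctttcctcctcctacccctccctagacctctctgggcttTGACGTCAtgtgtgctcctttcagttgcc

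The Nlk window held 2 GC boxes and no half-site, and the Mapk6 window 3 GC boxes and 1 half-site. The Mapk10 window held no GC box, and its capitals are the full palindromic cAMP response element TGACGTCA, in which the half-site matches on both strands, so these 2 matches overlap. A GC box was present in 6 of the 7 member promoters and in 33.0% of 27025 promoters of that length, or 57.8% of the 11450 that belong to tested genes. The half-site was present in 5 of 7, in 17.8% of all promoters and in 26.0% of those of tested genes. The full element was present in 1 of 7 (Mapk10), in 1.60% of all and in 2.64% of those of tested genes. The octamers bound by Capicua, a partner of ataxin-1 in the nucleus (TGAATGAA, TGAATGGA, TCAATGAA and TCAATGGA), were present in 3.25% of all promoters, 2.06% of those of tested genes and 0 of 7. The AP-1 site TGACTCA was present in 4.43%, 2.97% and 0 of 7, and the E-box CACGTG in 6.04%, 8.15% and 0 of 7. These matches describe letters in a window and are no evidence of binding.

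The genes whose pattern was most like that of a member were found by Pearson's r over the 12 libraries after the mean of each region was removed, a description that reflects the genotype gap the libraries share. For Nlk they were Pdp1 (r = 0.988), which encodes a mitochondrial phosphatase, Dpp8 (0.986) and Nrn1 (0.986), which encodes a neuronal surface protein. For Mapk4 they were Rgs20 (0.988), Ano3 (0.987) and Ccdc3 (0.986), and for Mapk6 they were Lynx1 (0.987), Kctd1 (0.980) and Adra1d (0.977). Mapk3 was closest to Gstm4 (0.962), Ascc1 (0.959) and Tppp3 (0.950), all higher in the SCA1 KI cortex, with LFCs of 0.34 to 0.55. Mapk9 was closest to Tango2 (0.984), Baalc (0.976) and Tmem44 (0.975), and Mapk10 to Tbc1d14 (0.979), Pou6f1 (0.976) and Fam186b (0.967). Mapk8 was closest to Rfwd2 (0.950), Fbxo33 (0.947) and Sec63 (0.941), and Mapk11 to Ubtf (0.954), Slc38a9 (0.947) and Ptar1 (0.947). For Mapk14 the first was an entry whose symbol had been turned into a date (0.987), followed by Smarca2 (0.970) and Adcy1 (0.968).

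Upstream of the typical MAP kinases (ERK, JNK and p38), the layer that phosphorylates them showed no calls. Of 7 MAP kinase kinases, 0 passed the test in the cortex and 0 in the cerebellum by limma, edgeR or DESeq2, with 0 at an unadjusted p under 0.05 in either region. The LFC in the cortex of Map2k4, a JNK activator, was −0.03 (standard error 0.06, adjusted p = 0.795) and that of Map2k7, another, was 0.02 (standard error 0.06, adjusted p = 0.893). Of the 22 tested genes of the Raf and MAP kinase kinase kinase list, 2 rose and 4 fell in the SCA1 KI cortex, and 1 rose in the cerebellum. Map3k5 (ASK1), a stress-activated kinase upstream of JNK and p38, fell in the cortex, from 2458 ± 93.4 to 1796 ± 259 normalized counts (LFC −0.46, adjusted p = 0.00968). In the cerebellum Map3k5 rose from 1718 ± 222 to 2530 ± 134 (LFC 0.57, adjusted p = 0.00776). Map3k14 (NIK, of the NF-kappaB pathway; LFC −0.57, adjusted p = 0.00234) and Map3k9 (MLK1, a JNK pathway kinase; LFC −0.44, adjusted p = 0.00458) fell in the cortex, and Taok3 rose there (LFC 0.41, adjusted p = 0.00383). Map3k10 (MLK2, of the same family as Map3k9) fell by little (LFC −0.28, adjusted p = 0.0213), and it shares 612 exonic bases with Ttc9b on the other strand. Of 7 MAP4 kinases, 0 were called by limma in either region, with 1 at an unadjusted p under 0.05 in each, and DESeq2 called 1 higher in the cerebellum.

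Genes that load or unload Ras, the switch above the ERK branch, were called in both regions. Of 30 tested Ras proteins, exchange factors and brakes, 7 fell and 0 rose in the cortex, and 4 fell and 0 rose in the cerebellum, with 13 and 8 at an unadjusted p under 0.05. Rasgrp1, a calcium- and diacylglycerol-regulated activator of Ras, fell in the cortex from 27582 ± 3162 to 19620 ± 1506 normalized counts (LFC −0.49, adjusted p = 0.00124), as did the brake Rasal2 (LFC −0.41, adjusted p = 0.00222). Rasgrf2, a calcium-responsive exchange factor, fell in both regions, with LFCs of −0.84 (adjusted p = 0.0212) in the cortex and −2.48 (adjusted p = 4.1e-05) in the cerebellum, where its level went from 1474 ± 682 to 247 ± 29.8. In the cerebellum Rasgrp2 (LFC −1.54, adjusted p = 0.000441), Rasal1 (LFC −1.49, adjusted p = 7.0e-06) and Rasgrf1 (LFC −0.39, adjusted p = 0.00776) fell too. Of the 6 thalamic neuron markers, 4 (Tcf7l2, Lef1, Slc17a6 and Rgs16) also fell in the SCA1 KI cerebellum, where their list summed to 4545 to 4886 normalized counts against 8247 to 13027 in WT, with none of the 6 at 0, and the part of such tissue in these Ras gene values was not tested.

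**Figure D5:**
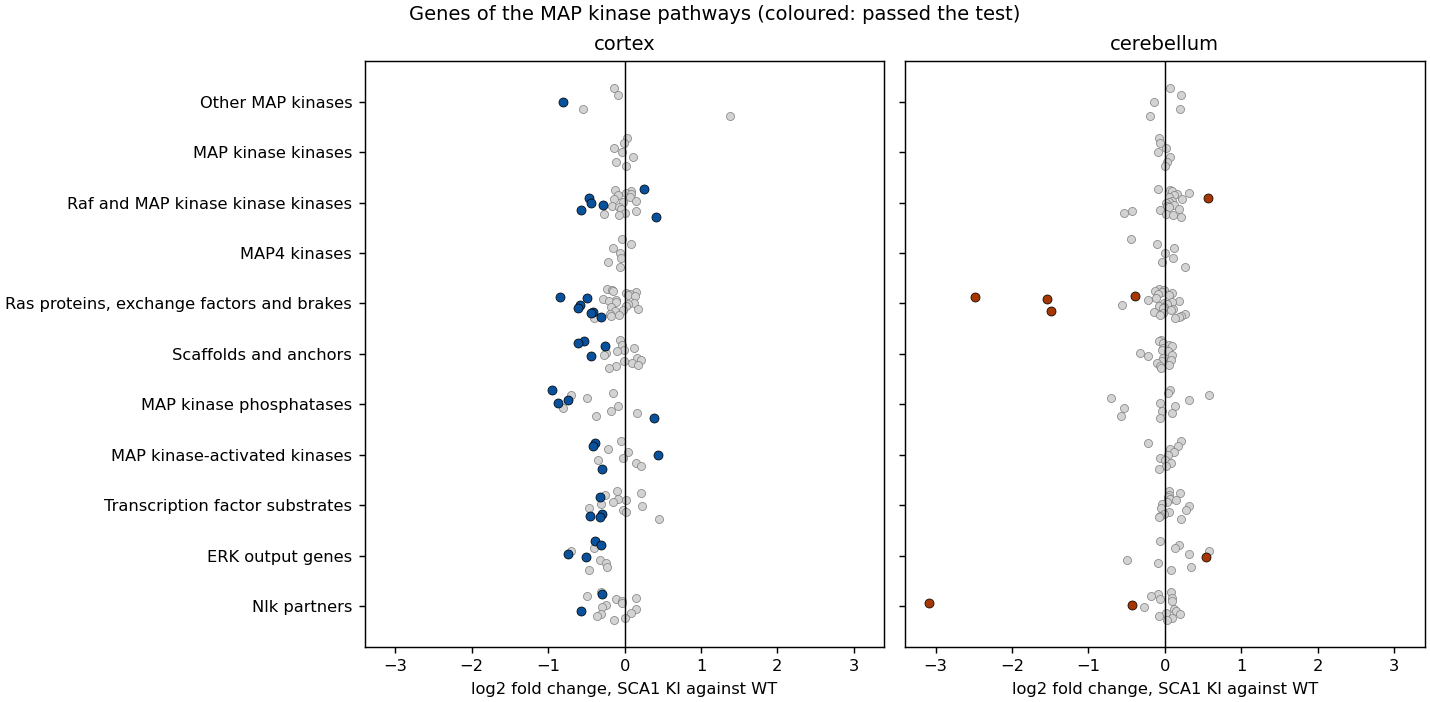
LFC of SCA1 KI against WT (horizontal axis, log2) for the tested genes of 11 pathway lists in cortex (left) and cerebellum (right), each point a gene, coloured where it passed the limma test with an absolute LFC over 0.25. Most coloured cortical points lie left of 0, and the cerebellum has 8 coloured points, 4 of them in the Ras list.

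Among the proteins that hold the cascades together, 4 of 18 tested scaffolds and anchors fell in the cortex and 0 rose, and 0 were called in the cerebellum by limma, with 2 at an unadjusted p under 0.05 there. Cnksr2, a postsynaptic Ras pathway scaffold, fell from 14066 ± 395 to 9258 ± 850 normalized counts (LFC −0.61, adjusted p = 0.00132). Ksr2, a scaffold of Raf and MAP kinase kinases, fell (LFC −0.53, adjusted p = 0.0171), and so did Arrb1, the beta-arrestin gene (LFC −0.44, adjusted p = 0.00479). Mapk8ip1, the JNK scaffold JIP1, had an LFC of −0.25 (adjusted p = 0.0176) that passed the limit of 0.25 by little.

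Phosphatases that switch MAP kinases off were called in the cortex in both directions. Of 12 tested MAP kinase phosphatases, 3 fell and 1 rose there, and 0 were called in the cerebellum by limma or edgeR, while DESeq2 called 2 lower and 2 had an unadjusted p under 0.05. Dusp7, an ERK phosphatase, fell from 4594 ± 123 to 2537 ± 406 normalized counts (LFC −0.87, adjusted p = 6.4e-05). Dusp1, an immediate early gene product that acts on JNK, p38 and ERK, fell from 1696 ± 201 to 879 ± 87.0 (LFC −0.95, adjusted p = 0.000971). Dusp6, which removes phosphate from ERK and is itself induced by ERK activity, fell (LFC −0.74, adjusted p = 0.0164), and Ptprr, a neuronal phosphatase of ERK, rose (LFC 0.38, adjusted p = 0.0194).

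Of 11 kinases activated by MAP kinases, 3 fell and 1 rose in the cortex and 0 were called in the cerebellum by limma, where 1 had an unadjusted p under 0.05. Rps6ka2 (LFC −0.39, adjusted p = 0.00756) and Rps6ka3 (LFC −0.41, adjusted p = 0.0184), ribosomal S6 kinases downstream of ERK, fell, and Rps6ka6 of the same family rose (LFC 0.43, adjusted p = 0.0112). Mknk2, which phosphorylates the translation factor eIF4E, fell (LFC −0.29, adjusted p = 0.0152). Rps6ka5 (MSK1), another kinase known to phosphorylate ataxin-1, had LFCs of 0.05 (standard error 0.07, adjusted p = 0.702) in the cortex and 0.12 (standard error 0.07, adjusted p = 0.459) in the cerebellum. Mapkapk5, a partner of the Mapk6 and Mapk4 products, had a cortical LFC of 0.15 (standard error 0.07, adjusted p = 0.154), and its exons overlap those of 2 other genes.

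Of 16 transcription factors that MAP kinases phosphorylate, 4 fell in the cortex, 0 rose, and 0 were called in the cerebellum by limma, with 2 at an unadjusted p under 0.05. The 4 were Mef2d (LFC −0.45, adjusted p = 0.00718), Srf (LFC −0.32, adjusted p = 0.0150), Ddit3 (LFC −0.32, adjusted p = 0.0133) and Mef2c (LFC −0.30, adjusted p = 0.0310). Mef2 factors and Srf are activity-dependent regulators in neurons, and Ddit3 is a stress-induced factor. Of 10 genes used as readouts of ERK output, 4 fell in the cortex, and 1 rose in the cerebellum. Ccnd1, the cyclin D1 gene, had opposite changes, with an LFC of −0.51 (adjusted p = 0.0198) in the cortex and 0.54 (adjusted p = 0.0335) in the cerebellum. Phlda1 (LFC −0.39, adjusted p = 0.0250) and Spry2, an inhibitor of receptor tyrosine kinase signals (LFC −0.31, adjusted p = 0.0264), fell with Dusp6 in the cortex, and Dusp6 and Spry2 each stand in another list as well. Ccnd1 shares 1100 exonic bases with LTO1 and Phlda1 shares 727 with Gm28592, each on the other strand. Some reads of Ccnd1 and Phlda1 may come from those genes.

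Of 16 tested substrates and partners of the Nlk product, 2 fell in each region. In the cortex they were Foxo3 (2125 ± 172 to 1432 ± 185 normalized counts, LFC −0.57, adjusted p = 0.00366) and Cic, the Capicua gene (LFC −0.29, adjusted p = 0.0394, and −0.07 with no call once the length and GC trend was removed). In the cerebellum they were Tcf7l2 (1979 ± 466 to 227 ± 19.7, LFC −3.09, adjusted p = 5.2e-05) and Lef1 (LFC −0.43, adjusted p = 0.0480), transcription factors of the Wnt pathway that are also 2 of the 6 thalamic markers described above. Nlk itself overlapped between genotypes in that region. Lef1 shares 1208 exonic bases with Gm43352 on the other strand. Atxn1, the gene that carries the knock-in, had 8147, 7443 and 6521 normalized counts in WT and 4604, 7249 and 6267 in SCA1 KI cortex libraries, which overlapped (LFC −0.31, standard error 0.13, adjusted p = 0.132). Its LFC passed at −0.45 without SCA1 KI library E, and its exons overlap those of Gmpr.

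Over all 148 tested genes of the lists, 34 were called in the cortex, 30 lower and 4 higher, which is 23.0% beside 15.6% of all tested genes. In the cerebellum 8 were called, 6 lower and 2 higher, or 5.41% beside 5.36%. Because the lists were chosen with earlier results of these data known, nothing is read from these shares. The lists' median LFC in the cortex was −0.12. Among the pathway genes named in the text, the call was lost, with the same sign, when single libraries were left out. Without cortex WT library C it was lost for Ccnd1, Ddit3, Dusp6, Mef2c, Phlda1, Ptprr, Rasgrf2, Rps6ka3, Srf and Spry2, whose LFC then was −0.19. Without WT library B it was lost for Ccnd1, Cic, Ksr2, Map3k10, Mapk8ip1, Mef2c, Mknk2 and Ptprr, and without WT library D for Cic, Map3k10, Mapk8ip1 and Mef2c. Without SCA1 KI library A it was lost for Ccnd1, Cic, Dusp6, Map3k10, Mapk8ip1, Phlda1, Ptprr, Rps6ka3 and Spry2, and without library E for Ddit3, Mknk2 and Rasgrf2. Without SCA1 KI library F it was lost for Cic, Rasgrf2, Rps6ka3, Spry2, Srf and Mef2c, whose LFC then was −0.18. The cerebellar call of Ccnd1 was lost without any 1 of the 6 cerebellar libraries, and that of Lef1 without any of these but WT library 6.

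Some cell type marker lists also differed between genotypes in the cortex, and others did not. Of the 7 markers of cortical excitatory neurons, 2 (Slc17a7 and Cux2) fell in the SCA1 KI cortex, and the list summed to 57549 to 68006 normalized counts against 84279 to 86155 in WT, with none at 0. Of 6 astrocyte markers 4 fell (sums of 37706 to 47675 against 54658 to 61210), and of 6 tested markers of midbrain and hindbrain neurons 3 (Pou4f1, Tal1 and Shox2) rose, with sums of 787 to 1528 against 170 to 285. Sums of the 5 hippocampal neuron markers (2155 to 3316 against 4709 to 5580, with 1, Wfs1, called lower), the 6 choroid plexus markers (7700 to 7941 against 10063 to 13124, with 0 called) and the 7 Purkinje cell markers (25054 to 29162 against 42464 to 45495) were lower in every SCA1 KI than in every WT cortex library. Of these Purkinje cell markers, 3 were called lower and 1, Slc1a6, was called higher. The same list summed to 284365 to 356788 in the WT cerebellum, and no Purkinje cells in the cortex are inferred from it. None of the 7 microglia, 7 oligodendrocyte or 6 endothelial markers was called in the cortex. The cerebellar granule cell list summed to 137709 to 200019 in the WT cerebellum and 4809 to 5263 in the WT cortex, and 0 of its 8 markers and 0 of the 7 Purkinje cell markers were called between genotypes in the cerebellum. The part of these markers' cells in the levels of the 9 kinases was not tested.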

How the data were processed

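Poly-adenylated RNA from 12 libraries (3 per group) had been aligned with STAR to mm10, counted with featureCounts and normalized with DESeq2 by the authors (tools and build per the labels, versions not given there). The deposited signal is the normalized count of a gene, that is, reads scaled by 1 factor a library. Whole reads were recovered from it within a tolerance of 0.01 for 100% of values, and they served edgeR 4.0.16 and DESeq2 1.42.0 as alternatives. All columns of library values were used. Columns name region, genotype and a letter or number of their own, so groups came from the labels and columns were matched to groups.

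The main test was limma 3.58.1 in R 4.3.3 on log2(normalized count + 1), with 4 group means and a trended prior, for 15369 genes with a mean of at least 10 (390 left out). P-values were adjusted by Benjamini-Hochberg over all of these, and calls required an adjusted p under 0.05 together with an LFC beyond 0.25 in size (adjusted p alone for differences between regions). LFCs on this scale understate changes at low counts. Libraries of a group differed by more than counting error (a chi-square of 7.54 to 36.6 a gene), and none was counted as a copy. On simulated counts limma recovered 84.5% of 200 changed genes among 15369 (169 genes in each region), with 20 false calls in the cortex and 14 in the cerebellum. The share recovered was not split by size of LFC, and recovery at the LFCs reported here was not tested separately.

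Members, pathway lists and marker lists were chosen with earlier results of these data known. Named were all members and other MAP kinases, up to 4 called genes a list and region by p, up to 3 a list by the p of the regional difference, Atxn1, and the 3 genes most correlated with each member. A few genes named by it are not reported here. Of 15758 symbols, 15009 matched GENCODE vM21 (GRCm38), which gave positions, exon lengths and overlaps. Tested without a member were 148 of the listed pathway genes. The marker lists of interneurons (in SCA1 KI mice 1 of 7 lower in cortex, 2 of 7 lower in cerebellum), striatum (1 of 5 and 0), hippocampus (1 of 5 and 0), choroid plexus (0 of 6 and 0) and blood (1 of 1 and 0) were examined too. Choroid plexus sums in the cerebellum ran from 37021 to 119016 in WT and from 6758 to 121983 in SCA1 KI libraries. Such tissue thus differed widely between libraries of a group, and its part in other values was not tested. In the thalamic list 2 of 6 were lower in SCA1 KI cortex, and of the Purkinje cell markers 3 of 7 were lower and 1 higher there. In the SCA1 KI cerebellum 3 of 6 midbrain and hindbrain markers and 1 each of the oligodendrocyte, astrocyte and microglia markers were lower, 1 of 7 cortical excitatory markers was higher, and 0 endothelial markers were called. Cerebellar oligodendrocyte sums were 155811 to 156338 in SCA1 KI and 183010 to 273533 in WT libraries. Astrocyte sums were 104890 to 108352 and 115740 to 117473. Microglia, interneuron, striatal, thalamic, and midbrain and hindbrain sums were also lower in every SCA1 KI cerebellar library. Cortical excitatory (20131 to 22079 against 13722 to 18883) and hippocampal sums were higher in every one. The other lists overlapped. Alternatives were a pseudocount of 0.5 or 5, a minimum mean of 100 or none, separate fits by region, median centring, removal of each library's trend on length and GC content (14639 genes), edgeR, DESeq2 and leaving out each library.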

Additional observations from a re-analysis of the deposited data

Results flagged for a closer look

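For 18 of 148 pathway genes (12.2%) the LFC of SCA1 KI against WT differed between cortex and cerebellum, beside 8.15% of all tested genes. The test was of the difference itself (limma, region by genotype, adjusted p under 0.05). There were 13 negative and 5 positive differences, beside 4.89% negative and 3.26% positive among all tested genes. Because the lists were chosen with earlier results of these data known, nothing is read from these counts. Values below are the cortical minus the cerebellar LFC on the log2 scale.

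Both directions were called for 2 of them, down in cortex and up in cerebellum. They were Ccnd1 (−1.05, adjusted p = 0.00494), with the exon overlap given above, and Map3k5 (−1.03, adjusted p = 0.00145). The difference was negative with a call in the cortex alone for the phosphatases Dusp6 (−1.05, adjusted p = 0.0280), Dusp1 (−1.01, adjusted p = 0.0113) and Dusp7 (−0.80, adjusted p = 0.00308), and for Foxo3 (−0.72, adjusted p = 0.0143). It was also negative for the scaffolds Cnksr2 (−0.59, adjusted p = 0.0240) and Mapk8ip1 (−0.34, adjusted p = 0.0392), for Rps6ka3 (−0.58, adjusted p = 0.0317) and for Spry2 (−0.50, adjusted p = 0.0240). The kinases Map3k9 (−0.46, adjusted p = 0.0432) and Map3k10 (−0.41, adjusted p = 0.0340) also had negative differences, as did the exchange factor Rapgef1 (−0.39), which lies outside the naming rule and was chosen after its values were seen. Leaving out 1 library at a time, the adjusted p no longer met this limit for Map3k9 in 10 of 12 cases, Rps6ka3 in 9, Map3k10 and Mapk8ip1 in 8 each, Dusp6 in 7, and Cnksr2 and Spry2 in 4 each.

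The difference was positive, with a lower level in the SCA1 KI cerebellum, for Tcf7l2 (3.06, adjusted p = 0.000922), Rasgrf2 (1.64, adjusted p = 0.00698), Rasal1 (1.37, adjusted p = 0.000350), Rasgrp2 (1.25, adjusted p = 0.0121) and Rasgrf1 (0.53, adjusted p = 0.00782). Thalamic markers were lower in the same cerebellar libraries, and their part in these 5 values was not tested.

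Mapk3 had libraries that did not overlap between genotypes in either region, higher in the SCA1 KI cortex and lower in the SCA1 KI cerebellum (difference 0.60, standard error 0.14). Its adjusted p was under 0.05, but the gene was chosen with these values in view and nothing is read from that. The cerebellar LFC was −0.15 (standard error 0.10), and −0.01 with the length and GC trend removed. Of all tested genes, 17.5% were lower without overlap in the SCA1 KI cerebellum, and 13.0% were higher without overlap in the SCA1 KI cortex.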

How the results depend on the processing

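No paired analysis was possible because the library columns carry letters or numbers of their own and not the replicate numbers of the labels. Of the 9 kinases, 1 was called higher and 6 to 7 lower in the cortex, and 0 in the cerebellum, under all 21 alternatives. In the main fit 4.82% of all tested genes were called higher and 10.8% lower in the cortex. The 9 were chosen with the values of these libraries known, so nothing is read from their counts. No value of any result reversed past a threshold. With each region fitted on its own, 393 genes were called higher in the cortex (741 in the main fit) and 220 in the cerebellum (141), and 18 pathway genes were called lower in the cortex (30). With the length and GC trend removed, 482 genes were called higher in the cerebellum, 7 pathway genes higher in the cortex (4), 10 higher in the cerebellum (2), and 1 other MAP kinase, Mapk7, higher in the cerebellum (0, LFC 0.34). The share of lower calls was then 56.4% in the cortex (69.2% in the main fit) and 54.3% in the cerebellum (82.9%), and the calls of Cic (LFC −0.07), Map3k10 (LFC −0.16), Mapk8ip1, Mef2c, Mknk2, Phlda1, Rps6ka2 and Srf were lost. DESeq2 called 231 genes higher in the cerebellum. The cause was not tested. Leaving out 1 library gave 43 (without cerebellum SCA1 KI library 1) to 195 genes higher and 356 (without the same library) to 806 lower in the cerebellum, 783 (again without it) to 1267 differences between regions, 1 to 3 pathway genes higher in the cerebellum and 0 to 1 other MAP kinases higher in the cortex, the 1 being Mapk15 without cortex WT library B. Of the pathway genes' LFCs under these alternatives, 796 in the cortex and 841 in the cerebellum stayed on their side of the threshold, while 61 and 16 lost a call. Of their regional differences 736 did so, 50 lost and 32 gained a call. With 3 libraries a group, differences as small as that of Mapk8 lie near the limit of 0.25 used for a call.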

Other observations

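In WT mice the pathway genes differed between regions, apart from any effect of genotype. Of 148 tested, 54 were higher in the WT cortex and 44 in the WT cerebellum (66.2% called in all, beside 61.7% of all tested genes). The Ras list had 15 genes higher in the cortex and 4 in the cerebellum, led by Rasgrp1 (LFC 3.38, standard error 0.08, adjusted p = 6.3e-12 from limma) and Rasal1 (LFC 2.99, standard error 0.10, adjusted p = 8.8e-11). Mef2c, a factor of excitatory cortical neurons, had an LFC of 4.16 (standard error 0.09, adjusted p = 2.3e-12). Higher in the WT cerebellum were Mapk12 (LFC −2.53, standard error 0.16, adjusted p = 1.7e-08), the phosphatase gene Ptprr (LFC −2.60, standard error 0.10, adjusted p = 2.0e-10) and Rps6ka5 (LFC −1.50, standard error 0.07, adjusted p = 1.5e-09). Of 22 Raf and MAP kinase kinase kinase genes, 10 were higher in the cerebellum and 4 in the cortex.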
